A study of Homo sapiens with 6 samples.

Results

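The genes described here were 10 feedback inhibitors and transcriptional targets of the ERK pathway in OVCAR5 ovarian cancer cells and in their derivative OVCAR5R. They comprised the phosphatases DUSP4, DUSP5 and DUSP6, the Sprouty genes SPRY1, SPRY2 and SPRY4, the Sprouty-related genes SPRED1 and SPRED2, and the ETS factors ETV4 and ETV5. They were chosen by name for their place in the pathway and with their difference between the 2 cell lines in view, since SPRY1 and DUSP4 had stood out as lower in OVCAR5R. Their values in this comparison are therefore given as a description, and no test result is read for them. All 10 were among the 12308 different rows listed by gene symbol, and all 10 passed the filter on low values that left 11766 genes.

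The study profiled total RNA by RNA-seq to examine how ovarian cancer cells become resistant to prexasertib (Prex), an inhibitor of the checkpoint kinase CHK1. OVCAR5 is the parental cell line, which the study describes as BRCA wild-type, and is represented by 3 libraries. OVCAR5R is the Prex-resistant line derived from it and has 3 libraries as well. Its selection lasted 3 to 4 months and ended at 3 µM Prex. The resistant cells were afterwards carried at 2 µM, and their RNA reflects cells that had been off the drug for a minimum of 4 days. Both lines grew in RPMI1640 with serum and insulin, so a growth factor was present in every culture. The resistant group is 1 derived line, and whether it is a clone or a pool is not given in the labels. The methods state that the 3 libraries of a line came from 3 cultures, so that p-values measure the spread between cultures of 1 parental and 1 derived line.

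ERK is the last kinase of the cascade that runs from RAS through RAF and MEK, and it carries growth factor signals to the nucleus. Active ERK switches on genes that then restrain the cascade: DUSP phosphatases remove phosphates from ERK itself, whereas Sprouty and SPRED proteins act further up, at the level of receptors, RAS and RAF. ETV4 and ETV5 are transcription factors whose mRNAs are induced by ERK, for example downstream of FGF receptors, and whose genes are held down by the repressor CIC. The mRNA levels of these genes are therefore often read as an account of ERK output, although phosphorylated ERK was not measured here.

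Values of single libraries are always listed in the order of replicates 1, 2 and 3 of a cell line. The deposited values were normalized on a linear scale and were analyzed as log2(value + 1), on which the difference of a low gene is understated. Depth on the listed genes was estimated from the smallest steps between values. In units of 1e6 reads, it was 35.8 to 41.3 in the OVCAR5 libraries and 50.3 to 55.1 in the OVCAR5R libraries. Every OVCAR5R library was thus deeper than every OVCAR5 library. A member gene had between 240 and 8319 estimated reads in a library. OVCAR5 replicate 2 stood apart from the other libraries. Its correlation across genes, which are not independent replicates, was 0.898 with replicate 1 and 0.883 with replicate 3 of the same line, whereas replicates 1 and 3 had 0.955. The epithelial marker EPCAM had a normalized value of 597 in OVCAR5 replicate 2 and 11.9 to 31.7 in the other 5 libraries. VIM, a mesenchymal marker, was 190 in that library and at least 1063 in every other. Of the same list, ZEB1, CDH2 and PDGFRB were also lowest in that library. COL1A1 went the other way, at 15.2 there and 1.29 to 9.03 in the other 5. Summed over the 4 listed epithelial markers of 5, OVCAR5 ranged from 2162 to 15905 and OVCAR5R from 3106 to 4132. Over the 5 listed mesenchymal markers of 6, the sums, which were mostly VIM, were 211 to 1798 and 1601 to 2433. Of the ovarian markers, PAX8 was 8.38 to 11.4 in OVCAR5 and 4.38 to 5.66 in OVCAR5R. WT1 was 0.0290 to 0.0731 in OVCAR5 and 0.380 to 0.727 in OVCAR5R, below the filter value of 1 in every library. MUC16 and SOX17 are not among the rows used here. Of the blood and endothelial markers only CD14 was listed, at 2.02 to 20.2. Values without OVCAR5 replicate 2 are therefore given beside those of the members, of the neighbors of SPRY1 and DUSP4 and of the other lists, and the part of the epithelial and mesenchymal difference in them was not tested.

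SPRY1 and DUSP4 were the members whose libraries did not overlap between the lines, both lower in OVCAR5R, while the libraries of the other 8 overlapped. The fit by limma at an adjusted p of 0.05 over all genes called 0.102% of all genes tested lower and 0.0170% higher, and it called 2 members lower (these same 2) and 0 higher. The 2 became 0 without OVCAR5 replicate 1 and without any one of the OVCAR5R replicates. Of all genes, 8.18% had every OVCAR5R library below every OVCAR5 library and 8.40% had every one above. Because the members were chosen on this comparison, their low values in it were fixed by the choice, and nothing is read from these counts. The median log2 difference (OVCAR5R minus OVCAR5) was -0.42 over the 10 members and -0.01 over all genes tested, with 7 members lower and 3 higher by their mean. Without OVCAR5 replicate 2 the median over the members was -0.61, 8 were lower by their mean, and 4 (SPRY1, DUSP4, SPRY2 and ETV5) had all OVCAR5R libraries below the remaining OVCAR5 libraries, as did 13.7% of all genes.

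**Figure D1:**
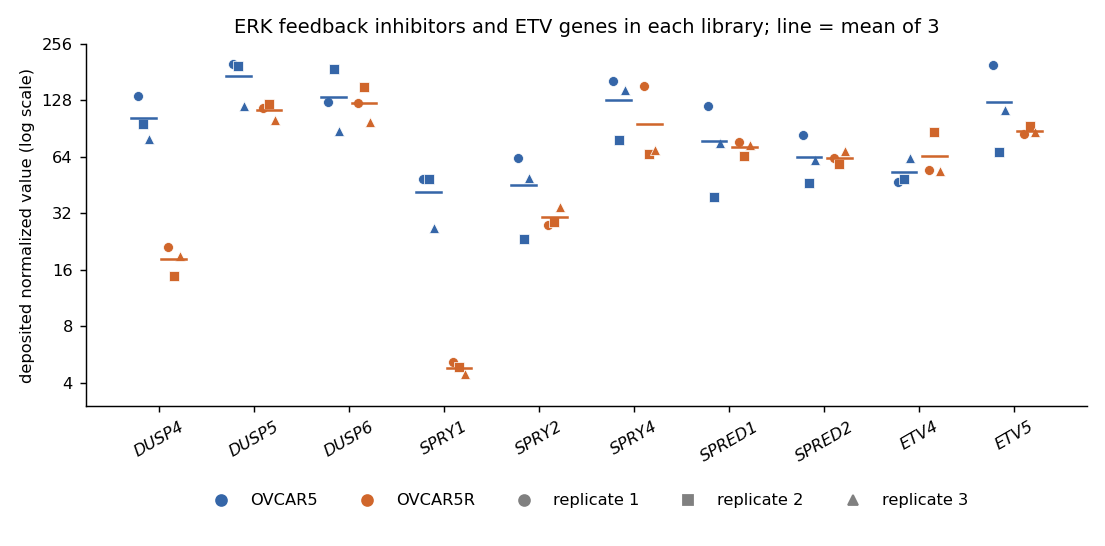
Deposited normalized values (log axis) of the 10 genes in each library of OVCAR5 (blue) and OVCAR5R (orange); the symbol gives the replicate and the line the mean of 3. SPRY1 and DUSP4 are the genes with a gap between the lines, and the OVCAR5R libraries lie at 4.47 to 5.16 for SPRY1 and at 14.8 to 21.1 for DUSP4.

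SPRY1 encodes a Sprouty protein that is induced by growth factors and dampens receptor tyrosine kinase signaling. Its normalized value was 48.8, 48.7 and 26.8 in the OVCAR5 libraries, and 5.16, 4.85 and 4.47 in the OVCAR5R libraries. Each OVCAR5R library was far below the lowest OVCAR5 library, and the OVCAR5R libraries lay close together. The means were 41.4 ± 12.6 and 4.83 ± 0.347 (SD, n = 3 each), so that OVCAR5R had 11.7% of the OVCAR5 level, a log2 difference of -2.82 (standard error 0.29). About 240 to 274 estimated reads stood behind each OVCAR5R value, so the gene was still detected. Among all genes tested, 32 had a lower log2 difference. The difference was -2.68 without OVCAR5 replicate 2.

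The 250 bases upstream of the RefSeq start of SPRY1 are shown beside those of SPRY2, its family member with overlapping libraries, since both can be read for letters that ERK-responsive ETS factors bind. The outermost listed start of each gene was used, and the counts below apply to that start only. Capitals mark GGAA, the core letters of ETS sites, or the reverse complement TTCC. The first lies on GRCh38.p14 at chr4:123396545-123396794 on the plus strand and the second at chr13:80341127-80341376 on the minus strand, each written 5′ to 3′ on the strand of its gene.
SPRY1: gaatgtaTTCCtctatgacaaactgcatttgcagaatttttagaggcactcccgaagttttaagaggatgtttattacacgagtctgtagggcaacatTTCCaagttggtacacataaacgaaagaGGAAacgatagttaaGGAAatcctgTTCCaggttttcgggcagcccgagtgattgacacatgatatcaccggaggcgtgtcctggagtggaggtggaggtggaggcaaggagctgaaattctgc
SPRY2: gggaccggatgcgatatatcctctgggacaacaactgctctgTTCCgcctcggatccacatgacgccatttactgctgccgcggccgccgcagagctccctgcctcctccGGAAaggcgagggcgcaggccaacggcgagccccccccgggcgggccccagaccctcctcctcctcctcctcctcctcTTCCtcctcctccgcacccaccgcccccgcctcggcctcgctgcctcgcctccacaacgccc
The SPRY1 stretch held 5 matches, a number that 18.6% of all RefSeq promoter stretches of this length reached or exceeded, and had 45.6% GC against a median of 58% over all. The SPRY2 stretch had 3 matches, which is the median of all stretches, and 70.4% GC. Longer letters were searched on both strands in the 10 windows of 300 bases that the RefSeq table held for 6 of the members, out of 35116 windows in all. TGAATGAA and TCAATGAA, which the repressor CIC binds, occur in 1.66% and 0.718% of all windows, and the ETS letters CCGGAAGT in 4.14%. None of the 10 member windows had any of the 3. DUSP4, DUSP5, ETV4 and ETV5 had no window and were not searched. Of a further pair of CIC letters added after the data were seen, TGAATGGA (1.03% of all windows) had no match in the members, and TCAATGGA (0.510%) had 2 matches in the window of DUSP6. A match is only a match of letters, and its absence from these windows says nothing about the factor.

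DUSP4 is a nuclear phosphatase that acts on ERK and related MAP kinases. Its normalized value was 136, 96.0 and 80.1 in the OVCAR5 libraries and 21.1, 14.8 and 18.9 in the OVCAR5R libraries. The lines did not overlap, and the highest OVCAR5R library was well below the lowest of OVCAR5. The means were 104 ± 28.5 and 18.3 ± 3.19 (SD, n = 3 each), which put OVCAR5R at 17.6% of OVCAR5, with a log2 difference of -2.42 (standard error 0.26). A lower log2 difference was found for 48 of all genes tested. It was -2.46 without OVCAR5 replicate 2. An exact permutation test of 3 against 3 libraries could give no p below 0.1 for a single gene. Over the alternatives run, the log2 difference of SPRY1 was between -3.09 and -2.67 and that of DUSP4 between -2.59 and -2.21.

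The other 2 phosphatases did not separate the lines. DUSP5, which is nuclear and specific for ERK, had values of 201, 196 and 120 in the OVCAR5 libraries and 117, 122 and 101 in the OVCAR5R libraries. OVCAR5 replicate 3 lay within the OVCAR5R range, and the other 2 OVCAR5 libraries were above it. The log2 difference was -0.57 (standard error 0.25), and -0.46 without OVCAR5 replicate 2. DUSP6, the cytoplasmic ERK phosphatase and a widely used readout of ERK activity, had values of 126, 189 and 88.4 in the OVCAR5 libraries. In the OVCAR5R libraries it had 124, 151 and 98.9, all inside the OVCAR5 range. Its log2 difference was -0.06 (standard error 0.31), and 0.22 without OVCAR5 replicate 2, the library with the highest value.

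SPRY2 and SPRY4 are the Sprouty genes most often named as direct ERK targets beside SPRY1. SPRY2 had values of 63.2, 23.5 and 49.3 in the OVCAR5 libraries, and 27.9, 28.9 and 34.6 in the OVCAR5R libraries. The OVCAR5R libraries lay below OVCAR5 replicates 1 and 3 and above OVCAR5 replicate 2. The log2 difference of SPRY2 was -0.45 (standard error 0.35), and -0.86 without OVCAR5 replicate 2, when the lines did not overlap. SPRY4 had values of 163, 78.5 and 145 in the OVCAR5 libraries, and 153, 66.5 and 69.9 in the OVCAR5R libraries. Here OVCAR5R replicate 1 was as high as the upper OVCAR5 libraries, while the other 2 OVCAR5R libraries were the lowest of all. Its log2 difference was -0.46 (standard error 0.39), and -0.78 without OVCAR5 replicate 2.

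SPRED1 and SPRED2 bind neurofibromin, the RAS-inactivating protein encoded by NF1, and bring it to the membrane. SPRED1 had values of 120, 39.1 and 76.3 in the OVCAR5 libraries, and 76.8, 65.0 and 73.9 in the OVCAR5R libraries. SPRED2 had values of 84.2, 46.2 and 61.7 in the OVCAR5 libraries, and 63.0, 58.6 and 69.1 in the OVCAR5R libraries. For both genes every OVCAR5R library lay between the highest and the lowest OVCAR5 library. The log2 differences were 0.01 (standard error 0.37) for SPRED1 and 0.03 (standard error 0.25) for SPRED2. Both turned negative without OVCAR5 replicate 2, at -0.41 and -0.18.

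ETV5 had values of 197, 68.0 and 114 in the OVCAR5 libraries, and 84.9, 93.1 and 87.3 in the OVCAR5R libraries. OVCAR5 replicate 2 was the lowest of the 6 libraries and the other 2 OVCAR5 libraries were the highest. The log2 difference was -0.38 (standard error 0.35), and -0.76 without OVCAR5 replicate 2, when the lines did not overlap, whereas it was 0.00 without OVCAR5 replicate 1. ETV4 had values of 47.2, 48.9 and 63.6 in the OVCAR5 libraries, and 54.5, 86.9 and 53.5 in the OVCAR5R libraries. The highest value was that of OVCAR5R replicate 2, and the other 2 OVCAR5R libraries lay within the OVCAR5 range. ETV4 was the member with the highest log2 difference, 0.26 (standard error 0.25), which was 0.21 without OVCAR5 replicate 2.

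Within OVCAR5, 8 of the 10 members were highest in replicate 1, as were 31.0% of all genes tested, and the exceptions were DUSP6 and ETV4. SPRY2, SPRY4, SPRED1, SPRED2 and ETV5 were lowest of the 3 OVCAR5 libraries in replicate 2, as were 39.7% of all genes tested, whereas DUSP6 was highest there. Over all members, the mean log2 value relative to the OVCAR5 mean was 0.37, -0.26 and -0.11 in the OVCAR5 libraries and -0.60, -0.69 and -0.76 in the OVCAR5R libraries. With SPRY1 and DUSP4 left out, the same mean over the other 8 was 0.38, -0.35 and -0.03 in the OVCAR5 libraries, and -0.14, -0.18 and -0.29 in the OVCAR5R libraries. All 3 OVCAR5R libraries then lay between OVCAR5 replicate 2 and OVCAR5 replicate 3. The coefficient of variation between libraries was larger in OVCAR5 than in OVCAR5R for 8 of the 10 members, as it was for 65.4% of all genes, with members' medians of 32.6% and 10.9%. Over all genes the medians were 24.8% and 18.1%.

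Levels of different genes were compared as the normalized value per kilobase of the longest protein-coding transcript. In OVCAR5, DUSP5 was highest at 67.5, followed by ETV5 at 30.7 and DUSP6 at 30.5, and SPRED1 was lowest at 10.1. On this scale SPRY1 (15.9), SPRY2 (16.7) and SPRED2 (15.6) were side by side in OVCAR5, with gaps far smaller than the spread between libraries, and DUSP4 was at 18.8. In OVCAR5R, DUSP5 was again highest at 44.3, whereas DUSP4 at 3.30 and SPRY1 at 1.85 were the lowest 2 of the 10. As the samples were bulk cultures, fewer expressing cells and less RNA per cell cannot be told apart.

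The genes around each member on its chromosome were taken as a second reference, using tested genes whose start lay within 10 Mb of the member's start (GENCODE release 29, GRCh38). SPRY1 lies on chromosome 4 at 123396795 to 123403760 and had 32 such neighbors. All 32 were lower in OVCAR5R by their mean, and 25 of them (78.1%) did not overlap between the lines, beside 8.18% of all genes. Their median log2 difference was -0.76, from -2.01 for PDE5A to -0.39 for ANKRD50. By limma 21 of the 32 had an unadjusted p under 0.05, as had 10.4% of all genes, and 0 passed after adjustment. Relative to the OVCAR5 mean, the median over the neighbors was 0.12, -0.03 and -0.06 in the OVCAR5 libraries, and -0.78, -0.93 and -0.78 in the OVCAR5R libraries. In this median every OVCAR5R library was below every OVCAR5 library. SPRY1 was lower than every one of these neighbors, and its log2 difference less their median was -2.06. Without OVCAR5 replicate 2 that value was -1.85, and the median of the neighbors was -0.83.

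Nearest to SPRY1 on one side, SPATA5 had a log2 difference of -0.40 (standard error 0.32), NUDT6 -0.78 (standard error 0.30) and KIAA1109 -1.46 (standard error 0.32). On the other side, ANKRD50 had -0.39 (standard error 0.49), FAT4 -0.69 (standard error 0.54) and INTU -1.29 (standard error 0.36). The libraries of NUDT6, KIAA1109 and INTU did not overlap between the lines, and those of the other 3 did. The adjusted p from limma was between 0.220 and 0.819 for these 6 genes.

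DUSP4 lies on chromosome 8 at 29333064 to 29350668 and had 85 neighbors, which did not share its difference. Of them, 35 were lower and 50 higher in OVCAR5R by their mean, with a median log2 difference of 0.08, and OVCAR5R was lower without overlap for 4 (4.71%) and higher for 10 (11.8%), beside 8.18% and 8.40% of all genes. None of the 85 was as low as DUSP4, and the lowest had -1.28. The log2 difference of DUSP4 less the median of its neighbors was -2.50. Leaving out OVCAR5 replicate 2 put that value at -2.48, and the median of the neighbors was 0.02. The nearest gene on one side was KIF13B at -0.72 (standard error 0.31), followed by HMBOX1 at -0.14 (standard error 0.34) and INTS9 at -0.07 (standard error 0.23). SARAF (-0.34, standard error 0.29), LEPROTL1 (0.08, standard error 0.21) and DCTN6 (-0.35, standard error 0.24) lay on the other side, and all 6 had overlapping libraries.

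**Figure D2:**
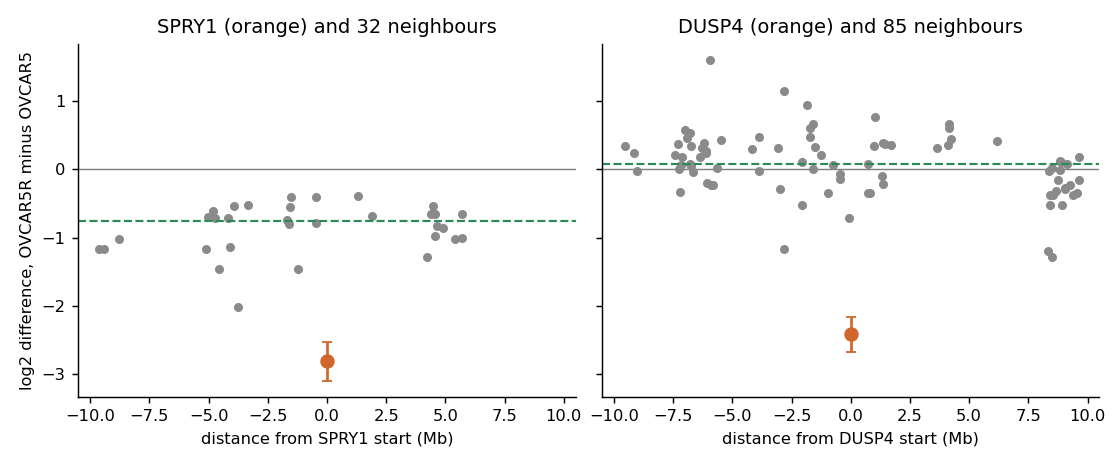
Log2 difference (OVCAR5R minus OVCAR5) of SPRY1 (left) and DUSP4 (right), in orange with a bar of 1 standard error, and of their tested neighbors (gray), against the distance of gene starts in Mb; the green dashed line is the median of the neighbors. All 32 neighbors of SPRY1 lie below 0 around a median of -0.76, whereas the 85 neighbors of DUSP4 lie around 0.08.

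The medians of the neighbors of the other 8 members lay between -0.17, for SPRY4 on chromosome 5 with 134 neighbors, and 0.20, for ETV5 on chromosome 3 with 78. For DUSP5 the median was -0.05 and for SPRY2 -0.07. Less the median of their neighbors, the log2 difference was -0.52 for DUSP5, -0.39 for SPRY2, -0.28 for SPRY4 and -0.58 for ETV5.

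**Figure D3:**
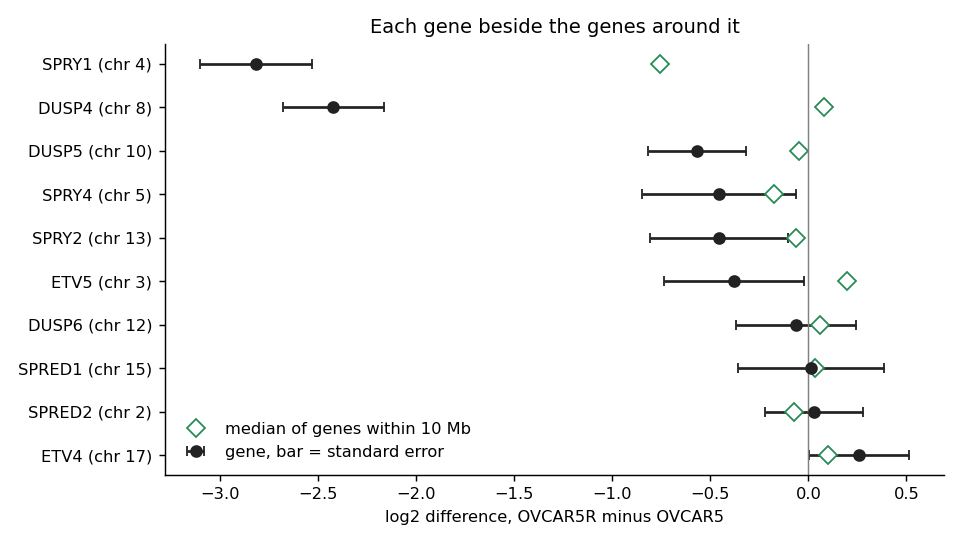
Log2 difference (OVCAR5R minus OVCAR5) of each of the 10 genes (black, bar of 1 standard error) and the median of its tested neighbors within 10 Mb (green diamond). SPRY1 and DUSP4 lie at -2.82 and -2.42, and the neighbors of SPRY1 have the lowest median of the 10, at -0.76.

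The genes whose pattern over the 6 libraries was most like that of SPRY1 or DUSP4 were sought by Pearson's r, as a description, since any gene that differs between the lines will have a high r. FBLN7 (0.990), NR2F1 (0.989), OSTC (0.988) and MOCOS (0.987) were among the closest to SPRY1. BBS7 (0.993), METTL14 (0.991), STS (0.989) and ARPIN (0.986) were closest to DUSP4. SPRY1 was number 5 in the order for DUSP4, and DUSP4 number 7 in that for SPRY1, with an r of 0.986 between the pair. OSTC, BBS7 and METTL14 are on chromosome 4, and BBS7 and METTL14 are among the neighbors of SPRY1. An r above 0.9 was reached by 190 genes for SPRY1 and by 155 for DUSP4.

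The rest of the pathway was described from 6 lists of 75 genes, of which 70 were listed in the table and 69 were tested. By limma 0 of the 69 passed the adjusted threshold of 0.05, and at an unadjusted p under 0.05 there were 4 higher and 4 lower, together 11.6% beside 10.4% of all genes. All OVCAR5R libraries were above all OVCAR5 libraries for 8 of them (11.6%) and below for 4 (5.80%), beside 8.40% and 8.18% of all genes. Their median log2 difference was 0.08. Without OVCAR5 replicate 2 there were again 0 called, 10 higher and 8 lower without overlap, and a median of 0.01. Of all genes, 13.8% were then higher and 13.7% lower without overlap.

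The core of the cascade comprised 17 genes from the adaptors to the kinases ERK1 and ERK2, with a median log2 difference of 0.11. It ranged from -0.57 (standard error 0.38) for GAB1, a docking protein for receptors, to 0.79 (standard error 0.30) for KSR1, a scaffold that holds RAF, MEK and ERK together. The libraries of ARAF, KSR1, GRB2 and SHC1 (4 of 17, 23.5%) were higher in OVCAR5R without overlap, and none were lower, beside 8.40% and 8.18% of all genes. The log2 difference was 0.23 for ARAF, 0.25 for GRB2 and 0.28 for SHC1. For these 4 genes the adjusted p from limma was between 0.419 and 0.695. With OVCAR5 replicate 2 left out the median was 0.00, with GAB1 at -0.57 and KSR1 at 0.71. Among 8 negative regulators of RAS the median was -0.05, and LZTR1, an adaptor for RAS degradation, was highest at 0.37 (standard error 0.30). Without OVCAR5 replicate 2 the median was -0.09 and LZTR1 was at 0.12, below DAB2IP at 0.34.

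RASA1, a GTPase-activating protein that switches RAS off, was the lowest of these regulators. Its normalized value was 231, 164 and 279 in the OVCAR5 libraries, and 93.8, 61.1 and 38.6 in the OVCAR5R libraries. Every OVCAR5R library was below every OVCAR5 library. The log2 difference was -1.84 (standard error 0.35), which did not pass the threshold over all genes (adjusted p = 0.154 from limma). It was -2.05 without OVCAR5 replicate 2. Its 45 neighbors on chromosome 5 had a median of -0.34, with 38 lower and 7 higher in OVCAR5R by their mean. Without overlap, 7 (15.6%) were lower in OVCAR5R and 0 higher, beside 8.18% and 8.40% of all genes.

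Among the other feedback genes and family members, 10 were tested with a median of -0.17. ERRFI1, a feedback inhibitor of EGFR, was lowest at -0.71 (standard error 0.32), with overlapping libraries. ATXN1L was lower in OVCAR5R without overlap, at -0.66 (standard error 0.22, adjusted p = 0.365 from limma). PEA15, which keeps ERK in the cytoplasm, had values of 166, 153 and 234 in the OVCAR5 libraries and of 403, 327 and 353 in the OVCAR5R libraries. The OVCAR5R libraries were all above those of OVCAR5, with a log2 difference of 0.99 (standard error 0.23, adjusted p = 0.243 from limma). Its 182 neighbors on chromosome 1 had a median of 0.13, with 62 lower and 120 higher in OVCAR5R by their mean. Without OVCAR5 replicate 2 the list's median was -0.41, ERRFI1 was at -0.82 and PEA15 at 0.87. ATXN1L (-0.64) and CIC (-0.52) were then lower without overlap, and PEA15 higher. Of the other dual-specificity phosphatases, 6 of 7 were tested, with a median of 0.30, and all 6 overlapped. They ranged from DUSP10 at -0.25 (standard error 0.34), which acts mainly on JNK and p38, to DUSP1 at 1.09 (standard error 0.65). DUSP1, an immediate-early phosphatase, varied from 8.46 to 61.8 within OVCAR5 alone. When OVCAR5 replicate 2 was left out it was at 1.68 and higher in OVCAR5R with no overlap, DUSP10 was at -0.18, and the list's median was 0.52. Without OVCAR5 replicate 3 the median was 0.09.

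The 23 other ERK targets tested had a median of 0.04. EREG, which encodes the EGFR ligand epiregulin, was lowest. It had values of 93.8, 195 and 69.9 in the OVCAR5 libraries and of 15.7, 33.5 and 37.1 in the OVCAR5R libraries. The lines did not overlap, and the log2 difference was -1.97 (standard error 0.44, adjusted p = 0.232 from limma). Its 57 neighbors on chromosome 4 had a median of -0.28, with 40 lower and 17 higher in OVCAR5R by their mean. FOSL2, an AP-1 factor, was highest of these targets, with 148, 76.0 and 162 in the OVCAR5 libraries and 226, 211 and 256 in the OVCAR5R libraries. Its log2 difference was 0.91 (standard error 0.30, adjusted p = 0.365 from limma). That rank rested on OVCAR5 replicate 2: without it FOSL2 was at 0.57, below EGR1 and FOS at 1.78 each and JUNB at 0.93, of which EGR1 did not overlap. EREG was still lowest at -1.55, and the list's median was 0.05. Of the FGF receptor genes and adaptors, which lie upstream of Sprouty and ETV expression in many tissues, 5 of 8 were listed, with a median of 0.08. FGFR4 was highest at 0.64 (standard error 0.21) with no overlap, and FGFRL1, a receptor without a kinase domain, was lowest at -0.32 (standard error 0.27). In the absence of OVCAR5 replicate 2 the median was -0.05, and FGFR1 was lowest at -0.74 (0.08 with all libraries). FGFRL1 was then at -0.54, both with no overlap, and FGFR4 at 0.68.

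**Figure D4:**
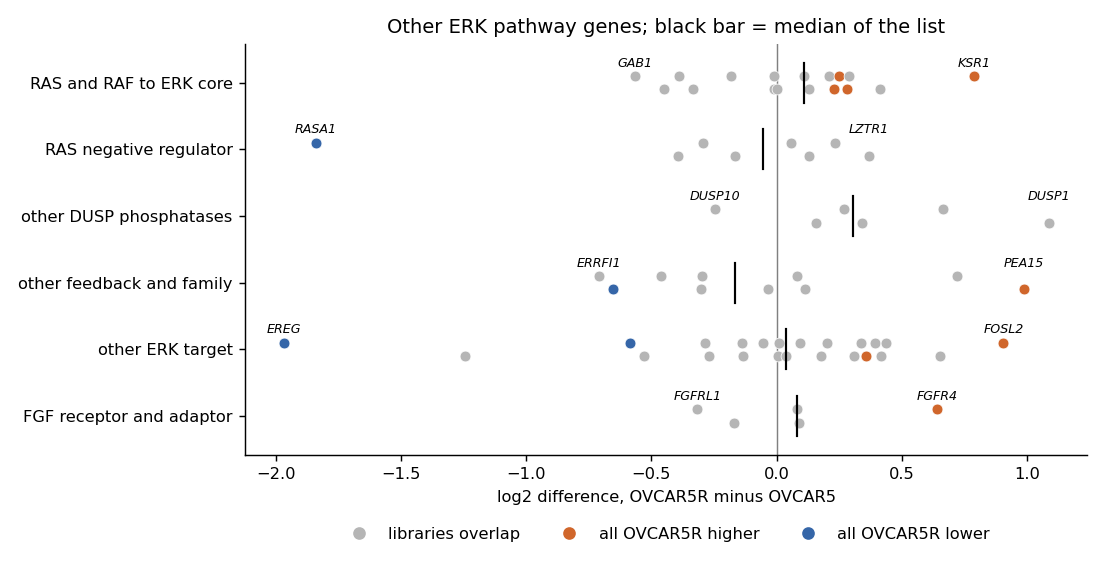
Log2 difference (OVCAR5R minus OVCAR5) of the 69 tested genes of the 6 other ERK pathway lists, one point per gene, with the median of each list as a black bar and the lowest and highest gene of each list named. Orange and blue points are genes with all OVCAR5R libraries above or below all OVCAR5 libraries, and RASA1 and EREG lie lowest at -1.84 and -1.97.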

How the data were processed

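Total RNA from 3 OVCAR5 and 3 OVCAR5R libraries was analyzed from 1 table. The values are a normalized signal that the authors deposited on a linear scale, 1 column per library. The methods state quartile normalization. The submitters' notes name build hg38, and the aligner and counter are not given in the sources used here. Between 62.1% and 66.6% of values were whole multiples of a library's step (tolerance 0.01), so that the table holds scaled estimated reads, and tests for counts were not used. Depth was estimated from these steps. With 3 libraries a line, the spread between libraries limits precision more than depth.

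Genes that reached a value of 1 in 3 or more libraries were tested on log2(value + 1) by limma version 3.58.1 (lmFit, eBayes with trend) in R version 4.3.3, two-sided, without covariates. P-values were adjusted over all 11766 genes by the Benjamini-Hochberg method at 0.05. The study names an unpaired rank test, which cannot give a p below 0.1 with 3 against 3 libraries. Genes were matched by symbol to GENCODE release 29 for position and length, and promoters came from RefSeq (GRCh38.p14). Figures were drawn with matplotlib version 3.10.9.

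The members and lists were chosen with earlier results of these data known. Named genes were all members, the highest and lowest gene of each other list and any gene called, the 3 nearest tested genes on each side of SPRY1 and DUSP4, and the 5 genes most like each. Genes named beside these, such as those without overlap in a list, were chosen after their values were seen. Of the genes most like SPRY1, 1 is left out. Alternatives were quantile normalization, no trend, other filters, a pseudocount of 0.1, a fold of at least 2, a replicate block, a radius of 5 Mb and each library left out. Counts of overlap without OVCAR5 replicate 2 and a pair of motifs were added after seeing the data.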

Additional observations from a re-analysis of the deposited data

How the results depend on the processing

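The number of genes called over all genes (14) was 5 with the replicate block and between 0 and 29 with a library left out, highest without OVCAR5 replicate 2 and lowest without OVCAR5R replicate 3. The number of members called lower (2) was 0 with the replicate block and between 0 and 2 with a library left out. The labels do not state whether the replicate numbers pair the libraries. Across genes, the deviations of same-numbered libraries from the mean of their line correlated at 0.00, 0.18 and -0.12. These values cannot decide whether same-numbered libraries shared a batch. The median log2 difference of the neighbors of DUSP4 was 0.30 within 5 Mb, and that of the neighbors of SPRY1 was -0.88 with a pseudocount of 0.1. By construction, a smaller pseudocount understates the difference of a low gene less. The other causes were not tested, apart from fewer libraries and genes by construction. The log2 differences of the members moved by less than their spread in all 120 combinations of member and alternative. Nothing is read from that, because it was fixed in advance for most of the alternatives. Leaving out the trend, changing the filter and adding the replicate block leave a difference unchanged. Leaving out a library cannot move it beyond the spread. Only quantile normalization and the pseudocount could have done so. There were 8 changes of sign in 4 members (DUSP6, SPRED1, SPRED2 and ETV5), all with a library left out. Leaving out a library took the list medians to between -0.41 and 0.19 for the other feedback genes, -0.07 and 0.38 for the FGF receptors, 0.09 and 0.52 for the other phosphatases, -0.08 and 0.19 for the other ERK targets, -0.09 and 0.01 for the RAS negative regulators, and 0.00 and 0.14 for the core. Depth was lowest for SPRY1 in OVCAR5R, at 240 estimated reads.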

Other observations

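FOS and EGR1, immediate-early targets of ERK that were chosen here after their values were seen, varied widely within a cell line. FOS had a normalized value of 16.6, 177 and 1.57 in the OVCAR5 libraries, and 7.18, 78.3 and 18.0 in the OVCAR5R libraries. EGR1 had 8.89, 220 and 2.05 in the OVCAR5 libraries, and 15.9, 31.8 and 11.1 in the OVCAR5R libraries. Both were highest in the library numbered 2 of each line and lowest of all in OVCAR5 replicate 3. AREG, which encodes the EGFR ligand amphiregulin, was 251 in OVCAR5 replicate 2 and 11.6 to 42.3 in the other 5 libraries. In the same library SPRY2, SPRED1, SPRED2 and ETV5 had their lowest value of all 6, whereas DUSP6 had its highest.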
